A study of Homo sapiens with 18 samples.

Results

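Inhibition of the endonuclease CPSF73 by JTE-607 was compared with no treatment in the human cell line K562, in readthrough reads of nascent RNA from 6 of the 18 long-read libraries of the series. The members of the comparison were the JTE 1h libraries (replicates 1 to 3, cells given 5 µM JTE-607 for 1 h) and the CTRL libraries (replicates 1 to 3, untreated), and all 13051 transcripts of the count table entered. K562 was derived from chronic myeloid leukemia in blast crisis, carries the Bcr-Abl1 kinase and resembles erythroid precursors, so that both groups share that kinase and its signalling. Replicates were cultures of this 1 line, and the treatment was a drug dose rather than a loss of the CPSF3 gene that encodes CPSF73. RNA was taken from chromatin and depleted of polyadenylated and ribosomal RNA before PacBio sequencing. The 3 KCl libraries (110 mM KCl for 45 min), which belong to the same set of libraries, served once as a second comparison.

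Pre-mRNAs of most protein-coding genes end by a cut in the nascent RNA, made by CPSF73 within the cleavage and polyadenylation complex a short way past a hexamer such as AATAAA. RNA polymerase II (Pol II) then continues past the cut and is released. Where the cut fails or comes late, nascent RNA extends into the region behind the gene and is seen as readthrough. CPSF73 also cuts the pre-mRNAs of replication-dependent histones, which end behind a stem-loop and carry no poly(A) tail. Mitochondrial transcripts are made by another polymerase and are separated without CPSF73.

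A read counted as readthrough when its 3′ end, which marks Pol II, lay more than 100 nt past the last exon of the transcript. Counts were set relative to all reads of the library that the study's mapping statistics list after filtering, as a share in percent or as readthrough reads per 1000000 library reads (RPM). Reads within genes were not used here, so more transcription of a gene and less cleavage of its RNA cannot be told apart in any value given. The CTRL libraries held 258592 to 410442 reads, of which 9172 to 13611 were readthrough, and the JTE 1h libraries 459508 to 1147511, of which 14075 to 57982 were readthrough. Of the 13051 transcripts, 3208 had no readthrough read in these 6 libraries and 969 had at least 30, the minimum for a test. All 9 markers of K562 in the table, among them HBG1, GATA1 and TFRC, had readthrough reads, with 103 to 162 per library in CTRL and 147 to 250 in JTE 1h. Of 6 markers of other blood cells 2 had reads, at most 2 per library, and of 6 markers of cells outside blood 4 had reads, at most 4 per library.

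The genes on which the comparison turns ended in different ways. The sequences below are the end of the annotated transcript on GRCh38, 30 bases 5′ to 3′ in the direction of the gene. Capitals mark the hexamer AATAAA or, in the histones, the letters CTTTTCAG from the loop and stem of the histone stem-loop.
RPL38: tggcatcataaaatctgtcttcatacccga
RPS19: atcAATAAAaatgttaaaagcaccgttgtt
GNAS: caaAATAAAaattaaatgtgagcaaagaat
MAPK6: tccAATAAAaattttatgtgccaattactt
SAP18: agaAATAAAtaagtagtcatcatgacagca
PHGDH: tctAATAAAgagcctacccccaactccttc
PCF11: gttgacctaagaacagctgagtatgggtgc
H2AC15: aaccaaaaaggttCTTTTCAGagccaccta
H4C2: tcttccaatggccCTTTTCAGggccgccca

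RPL38, RPS19, GNAS and MAPK6 are shown because readthrough was higher in all 3 JTE 1h libraries, SAP18, PHGDH and PCF11 because it was higher only in replicates 2 and 3, and the histones because their ends are cut by the same enzyme at another kind of site. The stretches lie on the plus strand at chr17:74210626-74210655 (RPL38), chr19:41872904-41872933 (RPS19), chr20:58911164-58911193 (GNAS), chr15:52067349-52067378 (MAPK6), chr13:21149056-21149085 (SAP18), chr1:119744193-119744222 (PHGDH) and chr11:83187422-83187451 (PCF11). Those of H2AC15 and H4C2 lie on the minus strand at chr6:27837880-27837909 and chr6:26026896-26026925. All are in last exons, and those with a hexamer begin 3 bases before it and may run a few bases past the annotated end. Of the 12704 transcripts found in the annotation, 7475 (58.8%) held AATAAA in the 40 bases before their end, 1759 (13.8%) held ATTAAA without it and 3470 (27.3%) held neither, searched on the strand of the gene. Neither was found before the ends of RPL38 and PCF11. CTTTTCAG was present in 39 of 63 replication-dependent histone transcripts and in 49 of all 12704 (0.386%).

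JTE-607 served the study as a control compound that blocks the cut itself, and the first question was whether readthrough rose over all genes together. Readthrough made up 3.33%, 3.32% and 3.55% of the reads in CTRL 1, 2 and 3, and 3.06%, 5.40% and 5.05% in JTE 1h 1, 2 and 3. Replicates 2 and 3 thus stood above every CTRL library and replicate 1 below every one. The group means were 3.399% ± 0.128 and 4.51% ± 1.26 (SD over 3 libraries each). Their difference of 1.11 percentage points was larger than the SD of CTRL and smaller than that of JTE 1h, in which replicate 1 stood apart. A two-sided exact permutation test gave p = 0.4, with a floor of 0.1 for 3 against 3 libraries. Without JTE 1h replicate 1 the difference was 1.83 points (p = 0.1 in the same exact test, its floor with 2 against 3 libraries). In the KCl libraries readthrough made up 2.46%, 2.68% and 2.15% of the reads, below every JTE 1h library, replicate 1 included. The difference between JTE 1h and KCl was 2.08 points (p = 0.1 in the same exact test, its floor).

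**Figure D1:**
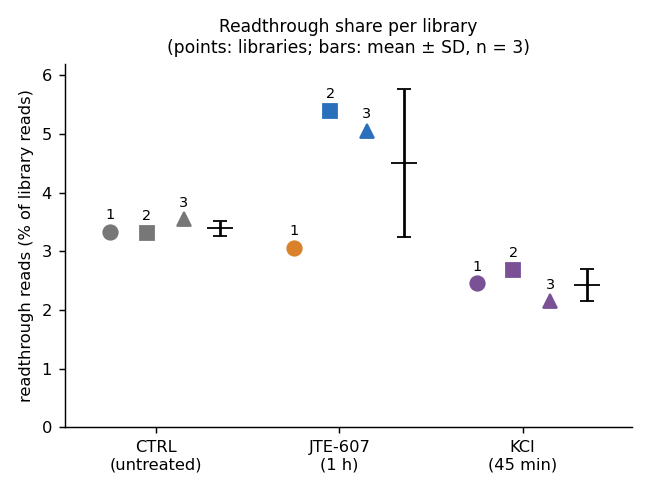
Readthrough reads as a percent of library reads (y axis) in the CTRL, JTE 1h and KCl libraries (x axis), where numbered points are replicates and the bars at their right are mean ± SD (n = 3). JTE 1h replicates 2 and 3 lie at 5.40% and 5.05%, above CTRL, and replicate 1 lies at 3.06%, between CTRL and KCl.

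JTE 1h replicate 1 and the other two also differed in a technical measure. By the study's read length statistics, readthrough reads were shortest in JTE 1h replicate 1, followed by CTRL 1 and CTRL 2, and were longer in CTRL 3 and in JTE 1h 2 and 3. Among the libraries of shorter reads, the share was 3.06% in JTE 1h 1 against a mean of 3.33% in CTRL 1 and 2, a difference of -0.262 points. Among those of longer reads, the mean of JTE 1h 2 and 3 was 5.23% against 3.55% in CTRL 3, a difference of 1.68 points. With 1 library on a side neither can be tested, and the part of read length in the difference was not tested. Across the 969 transcripts, log2 values of JTE 1h 1 correlated with CTRL 1 and 2 at r = 0.609 and 0.607, with CTRL 3 at 0.356 and with JTE 1h 2 and 3 at 0.399 and 0.472, while JTE 1h 2 and 3 correlated at 0.712. These are correlations across genes, which are not independent replicates, and they also rise with the depth of the libraries.

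The shift in JTE 1h replicates 2 and 3 was spread over most transcripts. The median log2 ratio to the mean of CTRL over the 969 transcripts was 0.78 in replicate 2 and 0.65 in replicate 3, against -0.16 in replicate 1 and -0.06, 0.06 and 0.08 in the CTRL libraries. Replicate 2 lay above all 3 CTRL libraries in 548 transcripts (56.6% of those tested) and replicate 3 in 534 (55.1%), but replicate 1 in 196 (20.2%). Replicate 1 lay below all 3 in 290 transcripts (29.9%), against 78 (8.05%) and 58 (5.99%) for replicates 2 and 3. The differences between JTE 1h and CTRL of equal replicate number, which share no library, correlated across transcripts at r = -0.018 for pairs 1 and 2, 0.117 for pairs 1 and 3 and 0.174 for pairs 2 and 3.

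**Figure D2:**
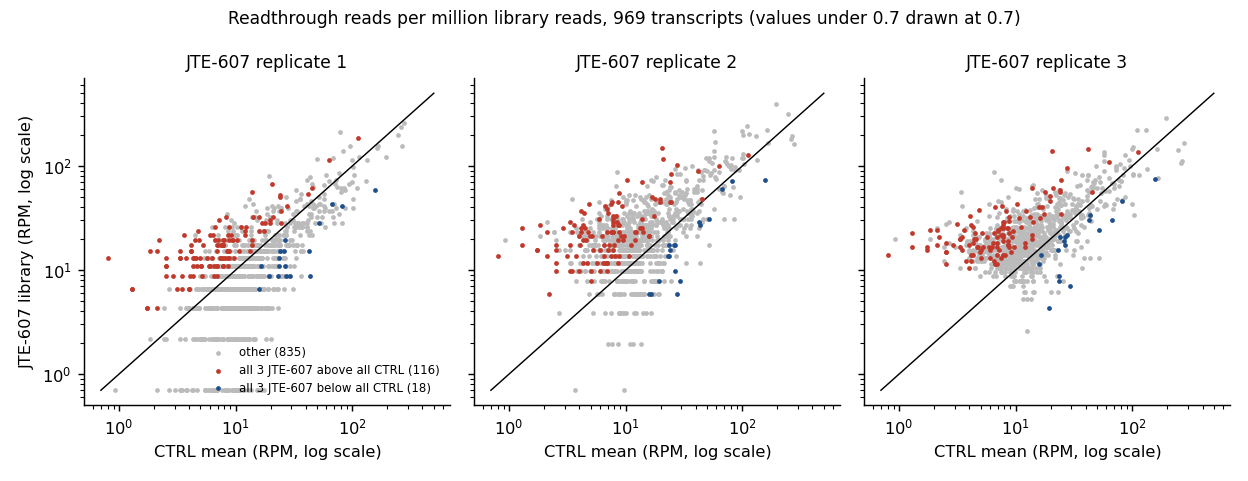
RPM of the 969 transcripts in each JTE 1h library (y axes, log scale) against the mean of the CTRL libraries (x axes, log scale), with the line of equal values. Red points are the 116 transcripts higher in all 3 JTE 1h libraries and blue points the 18 lower in all 3. The cloud lies above the line in replicates 2 and 3 and around it in replicate 1.

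Gene by gene, 1 of the 969 transcripts changed (0.103% called, edgeR quasi-likelihood test, Benjamini-Hochberg adjusted p under 0.05). It was RPL38, which encodes a protein of the large ribosomal subunit (17:74203678-74210655, plus strand, 5 exons, the next gene on that strand beginning 2916 bases on). RPL38 stood at 22.2, 19.5 and 19.3 RPM in CTRL 1 to 3 and at 67.5, 148 and 139 RPM in JTE 1h 1 to 3. Even the lowest JTE 1h library, replicate 1, was well above the highest CTRL library, so the groups did not overlap. The means were 20.3 ± 1.60 and 118 ± 44.2 RPM (SD, n = 3), a log2 fold change of 2.53 ± 0.53 (SE, adjusted p = 0.0406). The call was lost with any library other than JTE 1h replicate 1 left out, with TMM scaling or total readthrough reads as library size, without a filter and with read length class as a block. Over all alternatives the adjusted p ran from 0.000982 to 0.504 and the log2 fold change from 2.09 to 2.80. At an unadjusted p under 0.05 there were 108 transcripts (11.1%), 105 of them higher in JTE 1h (10.8%). With the replicate number as a block, RPS19, GNAS and RPL8 joined RPL38 as higher, at adjusted p = 0.0414 for RPS19, 0.0414 for GNAS and 0.0414 for RPL8.

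Transcripts whose groups did not overlap numbered 134 (13.8% of those tested), 116 higher in JTE 1h (12.0%) and 18 lower (1.86%). On the scale of total readthrough reads in place of library reads, which removes the shared shift, the split was 74 higher and 56 lower. The 10 of the 116 with the smallest p were RPL38, GNAS, RPL8, MAPK6, RPS19, RPL34, MKRN2, MRPL46, CCDC12 and COX7A2. Apart from RPL38, none of them passed the test over all 3 replicates.

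RPS19, a protein of the small ribosomal subunit, stood at 30.5, 7.31 and 3.87 RPM in CTRL and at 56.6, 70.01 and 61.9 RPM in JTE 1h, a log2 fold change of 2.11 ± 0.61 (SE, adjusted p = 0.226, edgeR). The JTE 1h values lay close together while CTRL 1 stood above the other two controls. RPL34, of the large subunit, had 8.32, 2.44 and 0 RPM in CTRL and 21.8, 27.2 and 24.4 RPM in JTE 1h. All 3 JTE 1h replicates of RPL34 were again alike, replicate 1 included. RPL8 had 8.32, 2.44 and 3.87 RPM in CTRL and 19.6, 42.8 and 37.5 RPM in JTE 1h, on a transcript that the annotation lists as a retained intron rather than as coding.

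GNAS, the α subunit of the stimulatory G protein, had 2, 0 and 0 readthrough reads in CTRL and 7, 14 and 28 in JTE 1h. Pooled per library read, JTE 1h held 11.9 times as many as CTRL, with a wide counting interval of 3.12 to 100.97 (95%, exact) on the 2 CTRL reads. MAPK6, an atypical MAP kinase also called ERK3, had 0, 0 and 1 reads in CTRL and 3, 13 and 26 in JTE 1h. Its pooled ratio was 20.4, with an interval of 3.46 to 824. In both genes every CTRL library held at most 2 reads, and the intervals cover counting error only, not the spread between replicates. CTRLim names the 3 untreated libraries of the other set. There GNAS stood at 21.8, 13.0 and 12.2 RPM, against 15.2, 27.2 and 24.4 RPM in JTE 1h. MAPK6 stood at 4.35, 7.41 and 2.03 RPM there, against 6.53, 25.3 and 22.7 RPM in JTE 1h. Against CTRLim both genes thus overlapped.

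MRPL46, of the large subunit of the mitochondrial ribosome, stood at 5.54, 9.75 and 15.5 RPM in CTRL and at 19.6, 73.9 and 42.7 RPM in JTE 1h. Replicate 1 exceeded the highest control only narrowly. COX7A2, a subunit of cytochrome c oxidase, stood at 2.77, 2.44 and 7.73 RPM in CTRL and at 13.1, 27.2 and 26.1 RPM in JTE 1h. CCDC12, a factor bound to the spliceosome, had 2.77, 9.75 and 0 RPM against 17.4, 36.9 and 27.0 RPM. In MRPL46, COX7A2 and CCDC12 alike, replicate 1 was the lowest of the JTE 1h libraries, though still above CTRL. In CTRLim MRPL46 stood at 26.1, 13.0 and 12.2 RPM and COX7A2 at 13.1, 11.1 and 14.2 RPM, which overlap JTE 1h. MKRN2 overlapped too, at 17.4, 11.1 and 14.2 RPM in CTRLim against 15.2, 23.3 and 17.4 RPM in JTE 1h. CCDC12, RPL38, RPS19, RPL34 and RPL8 were lower in every CTRLim library than in any JTE 1h library.

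Of the 18 transcripts lower in all 3 JTE 1h libraries, the 5 with the smallest p were NAXE, FTL, HECTD3, POLR2J2 and MT-ND5, none of which passed the test. NAXE, an epimerase that repairs damaged NAD(P)H, stood at 44.4, 19.5 and 23.2 RPM in CTRL and at 8.70, 7.78 and 6.97 RPM in JTE 1h (log2 fold change -1.89 ± 0.63, SE, adjusted p = 0.226, edgeR). FTL, the light chain of the iron store ferritin, had 250, 78.0 and 143 RPM in CTRL and 58.8, 73.9 and 75.8 RPM in JTE 1h. The lowest FTL control exceeded the highest JTE 1h library only slightly, and CTRL 1 stood well above the other controls. HECTD3, a ubiquitin ligase, had 19.4, 19.5 and 19.3 RPM against 8.70, 7.78 and 4.36 RPM, on at most 8 reads per library. POLR2J2, a near copy of a Pol II subunit gene whose reads may be shared with its paralogs, had 7, 10 and 7 reads against 5, 7 and 10. Its counted region begins inside ENSG00000267645 on the same strand, so reads there can come from that gene. MT-ND5, a mitochondrial subunit of complex I, had 22, 18 and 13 reads against 13, 16 and 28. POLR2J2 and MT-ND5 stood lower only once reads were divided by library size. Against CTRLim these 5 genes parted. NAXE and MT-ND5 were higher in every CTRLim library than in any JTE 1h library, and FTL overlapped. HECTD3 and POLR2J2 were lower in every CTRLim library than in any JTE 1h library, the other way from CTRL. The mean of HECTD3 was 1.91 RPM in CTRLim and 6.95 RPM in JTE 1h.

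**Figure D3:**
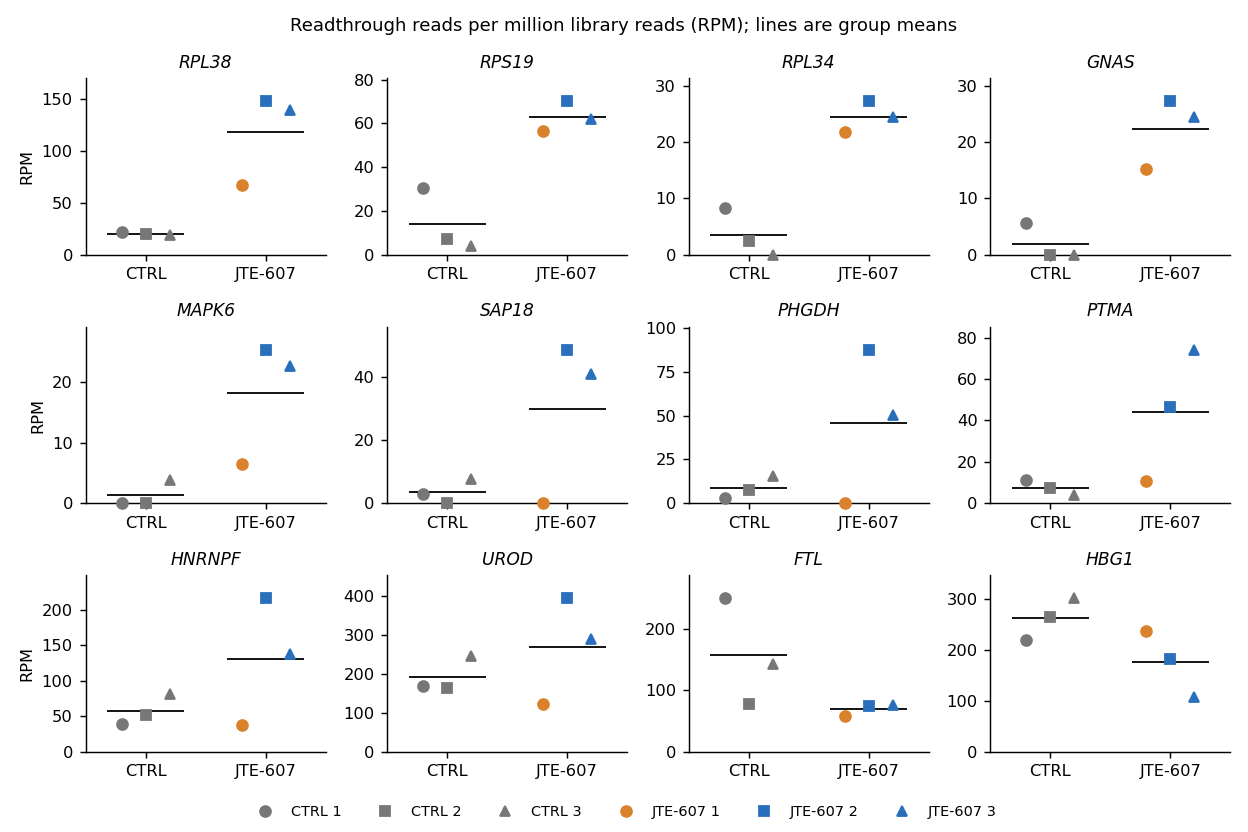
RPM (y axes, from 0) of 12 genes in the CTRL (grey) and JTE 1h (orange for replicate 1, blue for 2 and 3) libraries, with lines at the group means. RPL38, RPS19, RPL34, GNAS and MAPK6 are higher in every JTE 1h library; SAP18, PHGDH, PTMA, HNRNPF and UROD are higher in replicates 2 and 3 only; FTL is lower in all 3, and HBG1 in replicates 2 and 3.

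Without JTE 1h replicate 1, 75 of the 969 transcripts changed (7.74%), 73 of them higher in JTE 1h replicates 2 and 3 (7.53%). Of these 73, 32 were also higher in replicate 1 than in any CTRL library and 41 were not, and 9 of the 75 had no read in replicate 1. More widely, replicates 2 and 3 lay above all CTRL libraries in 427 transcripts (44.1%), in 311 of them without replicate 1 (32.1%), and below all of them without replicate 1 in 7 (0.722%). In these 311, replicate 1 stayed within the range of CTRL in 186 and below it in 125, and had no read in 30. The choice to set replicate 1 apart was made with its share known, so these counts describe replicates 2 and 3 and do not add evidence for the drug.

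Among the 10 genes with the smallest p in that fit, RPL38 and RPL8 were described above. The other 8 were PTMA, SAP18, PHGDH, SLC38A2, WDR1, BIRC5, PCF11 and DDIT4. SAP18, a subunit of the Sin3 histone deacetylase and exon junction-associated complexes, had 1, 0 and 2 reads in CTRL and 0, 25 and 47 in JTE 1h. PHGDH, which catalyses the first step of serine synthesis from glucose, stood at 2.77, 7.31 and 15.5 RPM in CTRL and at 0, 87.5 and 50.5 RPM in JTE 1h. In both genes replicate 1 held no read at all where replicates 2 and 3 stood far above every control. The log2 fold changes without replicate 1 were 3.81 ± 0.70 for SAP18 and 3.06 ± 0.57 for PHGDH (SE, edgeR adjusted p = 0.00423 for SAP18 and 0.00423 for PHGDH).

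SLC38A2, an amino acid transporter, had 1, 3 and 2 reads in CTRL and 0, 23 and 49 in JTE 1h. PCF11, the subunit of the cleavage complex that binds the tail of Pol II and acts in termination, had 0, 1 and 1 reads against 0, 15 and 29. DDIT4, an inhibitor of mTORC1 induced by stress, had 2, 1 and 3 reads against 0, 10 and 101, so that here replicates 2 and 3 also parted from each other. The 3 genes share the empty replicate 1 with SAP18 and PHGDH.

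In PTMA and BIRC5 replicate 1 held reads within the range of CTRL, and in WDR1 below it. PTMA, which encodes the chromatin protein prothymosin α, stood at 11.1, 7.31 and 3.87 RPM in CTRL and at 10.9, 46.7 and 74.1 RPM in JTE 1h. WDR1, which disassembles actin filaments together with cofilin, had 8.32, 12.2 and 11.6 RPM against 4.35, 52.5 and 60.1 RPM. BIRC5, the mitotic protein survivin, had 11.1, 7.31 and 11.6 RPM against 10.9, 46.7 and 61.0 RPM. The 2 transcripts called lower without replicate 1 were NAXE and MYC, the latter named after its values were seen. MYC, a transcription factor of growth and proliferation, had 63.8, 53.6 and 38.7 RPM in CTRL and 50.1, 17.5 and 13.1 RPM in JTE 1h, with replicate 1 within the controls.

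The most-read transcripts showed how the split between replicates looks where counts are high. UROD, an enzyme of heme synthesis, had 61, 67 and 64 reads in CTRL and 56, 203 and 334 in JTE 1h, or 169, 163 and 247 RPM against 122, 395 and 291 RPM. HBG1, a fetal hemoglobin chain, went the other way, with 219, 266 and 302 RPM in CTRL and 237, 183 and 107 RPM in JTE 1h, but it cannot be told from its near copy HBG2 where reads fall on shared sequence. The transcript counted for ACADM ends inside RABGGTB on the same strand and stood at 177, 353 and 213 RPM against 200, 313 and 143 RPM. Likewise ENSG00000251184 ends inside NUP188 (288, 258 and 286 RPM against 259, 163 and 166 RPM), and ENSG00000239920 ends inside HBG2 (189, 341 and 275 RPM against 155, 193 and 112 RPM). Reads in these 3 counted regions can come from the gene around them. CPSF3, which encodes the target of JTE-607, had 0, 1 and 0 reads in CTRL and 1, 1 and 1 in JTE 1h, too few for any comparison.

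Gene classes were then set beside all transcripts, whose summed readthrough, relative to the mean of CTRL, was 0.90 in JTE 1h 1, 1.59 in JTE 1h 2 and 1.49 in JTE 1h 3. Their median log2 fold change over the tested transcripts was 0.49, and 0.71 without replicate 1. TMM scaling on the readthrough reads brings this shared shift to 0.09, so a class with a median near 0.49 differed no more from CTRL than the rest. Under that scaling the medians of mitochondrial ribosomal proteins, chromosome 19 zinc finger genes and replication-independent histones turned negative (-0.06, -0.15 and -0.20), and the signs of the other classes with at least 2 tested transcripts stayed.

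Of the proteins of the cytosolic ribosome, 10 of 54 tested were higher in all 3 replicates (18.5%, against 12.0% of all). These were RPL4, RPL7, RPL8, RPL19, RPL34, RPL35, RPL38, RPL41, RPS19 and RPS23, and none was lower throughout. Summed over the 74 transcripts of the class, readthrough stood at 1430, 1574 and 1543 RPM in CTRL and at 1434, 2878 and 2526 RPM in JTE 1h, so that replicate 1 again matched the controls. The median log2 fold change was 0.55, close to that of all transcripts. RPL35 had 19, 9 and 13 reads in CTRL and 25, 46 and 168 in JTE 1h, and RPL7 had 7, 10 and 5 against 15, 60 and 70. RPL41, among the members with the most reads, had 28, 37 and 6 reads in CTRL and 53, 52 and 125 in JTE 1h. Without replicate 1, 9 members were called higher (16.7% of those tested, against 7.53% of all), among them RPL7A and RPS21, which were not higher in replicate 1. The class is read densely, and several of its genes have processed copies elsewhere in the genome, with which they may share reads.

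Genes of the mitochondria were taken apart by where they are encoded. Of the 21 tested proteins of the mitochondrial ribosome, all encoded in the nucleus, 4 were higher in all 3 replicates (19.05%, against 12.0% of all). These were MRPL10, MRPL27, MRPL36 and MRPL46. Nuclear-encoded subunits of the respiratory chain had 5 of 22 higher (22.7%), namely ATP5F1E, COX7A2, NDUFA8, NDUFB4 and UQCRC1. CYC1 was lower (1 of 22, against 1.86% of all). The median log2 fold changes of these classes were 0.35 and 0.67. Of the 7 tested transcripts encoded in the mitochondria themselves none was higher, and MT-ND5 was lower in all 3 replicates (1 of 7, against 1.86% of all). Their summed readthrough was 189, 144 and 178 RPM in CTRL and 95.7, 117 and 134 RPM in JTE 1h, every JTE 1h library below every CTRL library. Their median log2 fold change was -0.53. The reads past mitochondrial genes are parts of long joint precursors that hold several genes.

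Replication-dependent histones, whose pre-mRNAs are also cut by CPSF73, had no more summed readthrough in JTE 1h than in CTRL on average. Of 36 tested, H2AC6 was higher in all 3 JTE 1h libraries (2.78%, against 12.0% of all). H3C14 and H2AC12 were lower (2 of 36, against 1.86% of all), and none was called with or without replicate 1. Their summed readthrough was 1713, 2882 and 1063 RPM in CTRL and 1532, 2548 and 1288 RPM in JTE 1h. The CTRL libraries thus differed among themselves by more than the group means did, and CTRL 2 and JTE 1h 2 were both high. Their median log2 fold change was -0.23, -0.24 without replicate 1 and 0.01 with read length class as a block. Among the libraries of shorter reads, their sum in JTE 1h 1 was 0.67 of the mean of CTRL 1 and 2, against 0.92 for all transcripts. Among those of longer reads, the mean of JTE 1h 2 and 3 was 1.80 of CTRL 3, against 1.47 for all. The average over the groups thus joins opposite directions, and the part of read length was not tested. H2AC15 had 58, 105 and 19 reads in CTRL and 69, 114 and 169 in JTE 1h, and H4C2 had 65, 98 and 20 against 71, 86 and 89. These genes are made in S phase, lie in clusters of near-identical copies and may share reads. The 8 replication-independent histone transcripts, most of which end behind a hexamer, stood at 0.70, 1.45 and 0.86 of their CTRL mean in CTRL and at 0.77, 1.88 and 1.57 in JTE 1h. H3-3B, which encodes the variant H3.3, had 10, 27 and 10 reads in CTRL and 15, 45 and 72 in JTE 1h.

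Factors that act on RNA stood higher in replicates 2 and 3, as did all transcripts together. SR proteins and hnRNPs, which bind pre-mRNA and guide splicing, stood at 510, 485 and 785 RPM in CTRL and at 417.8, 1293 and 998.7 RPM in JTE 1h. Of their 27 tested transcripts, 14 were higher in replicates 2 and 3 only (51.9%, against 32.1% of all). HNRNPC and SRSF10 were higher in all 3 (7.41%, against 12.0% of all). The 5 called higher without replicate 1 (18.5%, against 7.53% of all) were SRSF6, SRSF10, HNRNPAB, HNRNPF and EWSR1. HNRNPF stood at 38.8, 51.2 and 81.2 RPM in CTRL and at 37.0, 216 and 137 RPM in JTE 1h, and its log2 fold change was 1.21 ± 0.54 with replicate 1 and 1.64 ± 0.41 without it (SE, edgeR adjusted p = 0.426 with it and 0.0202 without). CTRL 3 was the highest control in this class, as it was in the class of cleavage and polyadenylation factors. Relative to CTRL 3, the mean of JTE 1h 2 and 3 was 1.46 in SR proteins and hnRNPs and 1.27 in cleavage and polyadenylation factors, against 1.47 for all transcripts. Cleavage and polyadenylation factors stood at 69.3, 85.3 and 162 RPM in CTRL and at 80.5, 235 and 179 RPM in JTE 1h. Of their 4 tested transcripts 3 were higher in replicates 2 and 3 only, too few for a share to be read. The members of this class with the most reads were PCF11 and CPSF7, a subunit of cleavage factor I with 3, 3 and 3 reads against 2, 12 and 23. Of the 10 tested core spliceosome transcripts, SF1 and SNRPG were higher in all 3 replicates (2 of 10, 20%, against 12.0% of all).

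**Figure D4:**
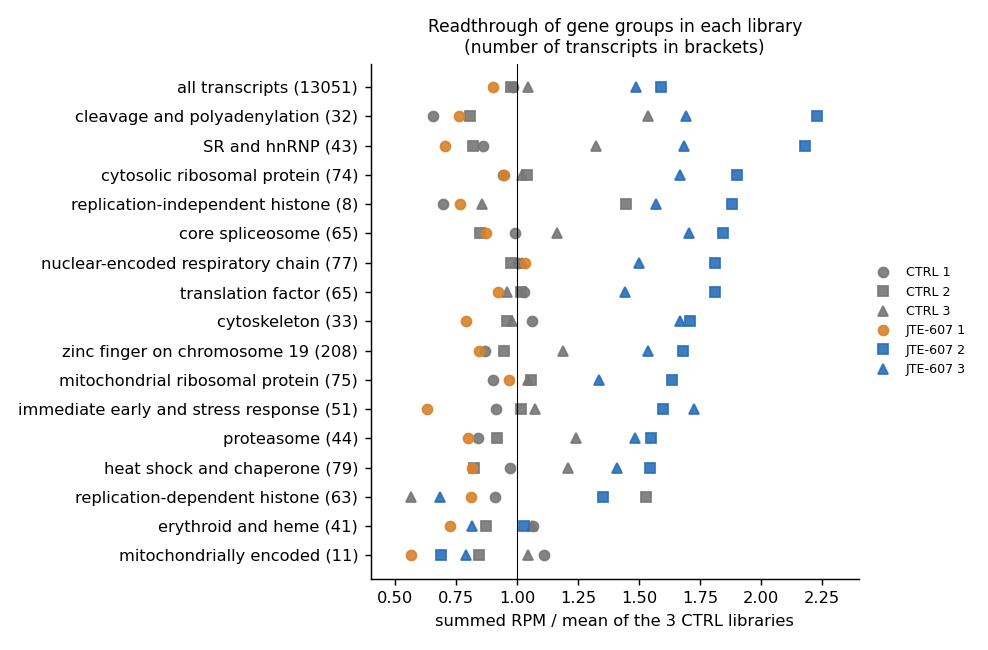
Summed RPM of each gene class divided by the mean of the CTRL libraries (x axis), for CTRL (grey), JTE 1h replicate 1 (orange) and replicates 2 and 3 (blue), with the number of transcripts in brackets. Most classes show replicates 2 and 3 above every control and replicate 1 within or below the controls, whereas replication-dependent histones, erythroid and mitochondrially encoded transcripts do not show replicates 2 and 3 above.

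Stress and housekeeping classes had medians near or somewhat above that of all transcripts. Immediate early and stress response genes had a median log2 fold change of 0.57, with 9 of 19 tested higher in replicates 2 and 3 only (47.4%, against 32.1% of all). Of that class JUN was higher in all 3 replicates (1 of 19 tested, 5.26%, against 12.0% of all). CISH and MCL1 were lower (2 of 19, against 1.86% of all). TXNIP, a thioredoxin-binding protein, stood at 63.8, 132 and 135 RPM in CTRL and at 60.9, 243 and 224 RPM in JTE 1h. ATF4, the transcription factor of the integrated stress response, had 77.6, 43.9 and 38.7 RPM against 43.5, 81.7 and 69.7 RPM, which overlap. Heat shock proteins and chaperones had a median of 0.74, with CCT5 and DNAJC7 higher in all 3 replicates (2 of 13 tested, 15.4%, against 12.0% of all). HSPA8 was lower (1 of 13, against 1.86% of all), at 85.9, 85.3 and 73.5 RPM against 41.3, 72.0 and 46.2 RPM. HSP90AB1 had 41.6, 34.1 and 61.9 RPM against 43.5, 73.9 and 69.7 RPM. Translation factors had a median of 0.63 and EIF1 and ETF1 higher throughout (2 of 12 tested, 16.7%, against 12.0% of all). Proteasome subunits had 0.59 and PSMC3 (1 of 11, 9.09%), and cytoskeleton genes 0.61 and MYL12A (1 of 11, 9.09%). Zinc finger genes of chromosome 19 had a median of 0.27 over 8 tested transcripts, and the 2 tested Integrator transcripts one of 0.60.

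Erythroid and heme genes, which define the cell line, had no more summed readthrough in JTE 1h than in CTRL on average. Their summed readthrough was 901, 738 and 897 RPM in CTRL and 612, 867 and 688 RPM in JTE 1h, and the median log2 fold change of the 7 tested transcripts was -0.21. GATA2, a transcription factor of blood precursors, was higher in all 3 replicates (1 of 7, 14.3%, against 12.0% of all). It had 5, 2 and 2 reads against 9, 12 and 37. FTL was lower (1 of 7, against 1.86% of all). The markers of K562 together stood at 371, 395 and 398 RPM in CTRL and at 320, 307 and 218 RPM in JTE 1h, every JTE 1h library below CTRL. HBG1 and HBE1 made up most of these reads, and HBE1 had 80.4, 82.8 and 46.4 RPM against 43.5, 64.2 and 61.9 RPM.

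Gene structure was compared over all transcripts, tested or not. Readthrough was first split by whether the counted region begins inside another protein-coding gene of the same strand, as it did for 1029 of 12704 transcripts. For these the summed readthrough relative to the CTRL mean was 1.19, 1.10 and 1.12 in JTE 1h 1, 2 and 3. For the 11675 transcripts not inside such a gene it was 0.85, 1.68 and 1.55, so that the split between replicate 1 and the others was seen in the latter. The CTRL libraries ranged from 0.91 to 1.07 in the former and from 0.96 to 1.07 in the latter. Transcripts inside a neighbour made up 13.2% of those tested, 11.5% of those higher in all 3 replicates, 5.65% of those higher in replicates 2 and 3 only and 2.86% of those called higher without replicate 1. Without these transcripts the difference in readthrough share was 1.04 points.

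By last exon length, the classes differed mainly in replicates 2 and 3 when set against the CTRL mean. Relative to CTRL 3 the shortest and longest classes were alike. Leaving out histones and transcripts inside a neighbour, the ratio to the CTRL mean was 0.97, 1.60 and 1.57 in JTE 1h 1, 2 and 3 for last exons under 200 nt, and 0.86, 1.96 and 1.77 for those of 4000 nt and over. In the longest class CTRL 3, the control of longer reads, stood at 1.21 and CTRL 1 and 2 at 0.96 and 0.83. Relative to CTRL 3, the mean of JTE 1h 2 and 3 was 1.57 for under 200 nt and 1.54 for 4000 nt and over. The part of read length was not tested. The tested transcripts higher in replicates 2 and 3 only had a median last exon of 1342 nt, those higher in all 3 replicates one of 1116 nt and those lower one of 522 nt, beside 980.5 nt for all tested.

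Transcripts with AATAAA before their end stood at 0.89, 1.68 and 1.59 of the CTRL mean in JTE 1h 1, 2 and 3, those with ATTAAA at 0.87, 1.69 and 1.62, and those with neither at 0.93, 1.41 and 1.28. Outside a neighbour, and without histones and mitochondrially encoded transcripts, those with neither hexamer stood at 0.86, 1.62 and 1.56, near the 0.85, 1.73 and 1.62 of those with a hexamer outside a neighbour. Of the transcripts higher in all 3 replicates, 58.4% held AATAAA, 17.7% ATTAAA and 23.9% neither, beside 55.6%, 12.6% and 31.8% of all tested. In the 50 bases behind the end, where a G and U rich element of the cleavage site usually lies, the ratio was 0.90, 1.37 and 1.34 for transcripts with less than 50% G and T, and 0.87, 1.66 and 1.59 for those with 70% or more. The CTRL libraries ranged from 0.97 to 1.03 and from 0.93 to 1.09 in these classes.

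**Figure D5:**
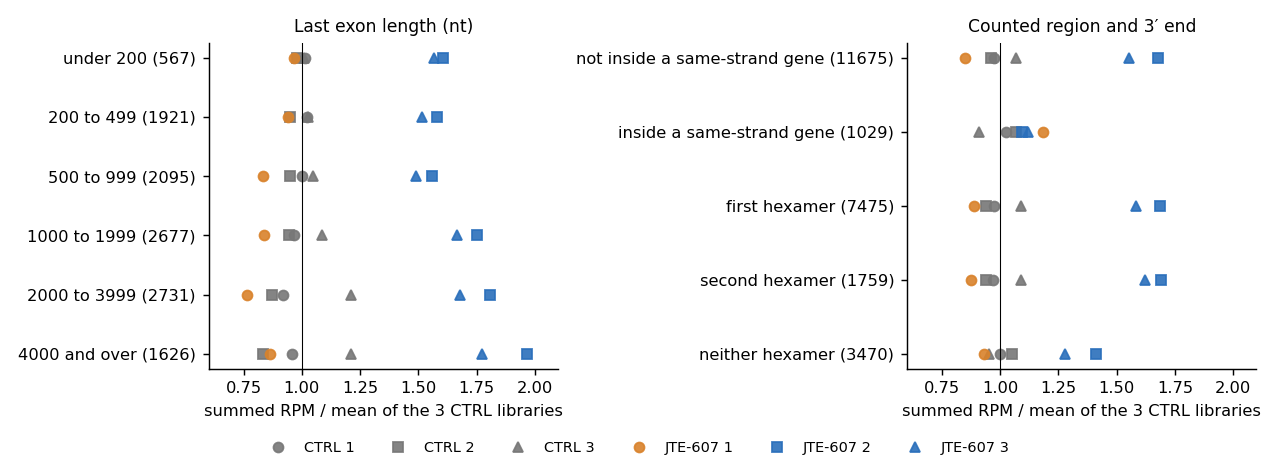
Summed RPM divided by the mean of the CTRL libraries (x axes), by last exon length without histones and transcripts inside a neighbour (left), and by the place of the counted region and by AATAAA (first) or ATTAAA (second hexamer) before the end (right), with the number of transcripts in brackets. Transcripts inside a same-strand gene show 1.10 to 1.19 in all 3 JTE 1h libraries, and all other classes show replicates 2 and 3 above replicate 1.

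Short genes stood closer to the CTRL mean in JTE 1h 2 and 3, but not relative to CTRL 3, the control of longer reads. Transcripts of genes spanning under 3000 bases stood at 0.85, 1.28 and 1.10 of the CTRL mean in JTE 1h 1, 2 and 3, and at 0.88, 1.25 and 1.30 without histones, against 0.91, 1.72 and 1.61 for spans of 30000 to 99999 bases. For spans under 3000 bases CTRL 1 to 3 stood at 1.02, 1.20 and 0.78. Relative to CTRL 3, the mean of JTE 1h 2 and 3 was 1.51 for these spans and 1.39 for 30000 to 99999 bases. The part of read length was not tested. Genes of 1 exon stood at 0.89, 1.29 and 0.91, and at 1.06, 1.23 and 1.31 without histones. The median span was 11696 bases for transcripts higher in all 3 replicates and 12446 for those higher in replicates 2 and 3 only. It was 3049 for the 15 annotated of the 18 lower, beside 9682 for all tested. The level in CTRLim, the untreated libraries of the other set, was used to rank transcripts without using CTRL or JTE 1h. Those of 50 RPM and over stood at 0.82, 1.31 and 0.97, those of 5 to 10 RPM at 0.88, 1.71 and 1.63 and those at 0 at 1.10, 1.59 and 1.79. By the distance to the next gene, transcripts with a same-strand gene starting within 1000 bases stood at 1.06, 1.21 and 1.38, and those with none within 100000 bases at 0.90, 1.74 and 1.59. In CTRL 1 to 3 the former stood at 1.21, 1.05 and 0.74 and the latter at 0.95, 0.93 and 1.12. Relative to CTRL 3 the order was the other way, with the mean of JTE 1h 2 and 3 at 1.75 and 1.49. Here too the part of read length was not tested.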

How the data were processed

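Readthrough reads were counted in 3 JTE 1h and 3 CTRL libraries of nascent K562 RNA, with 3 KCl libraries for 1 comparison. The authors removed adapters with cutadapt, mapped reads with minimap2 to GRCh38.p14 and removed duplicates by molecular identifiers. They also took out splicing intermediates, polyadenylated reads and entries whose read name occurred more than once. The deposited values are raw counts per transcript, neither normalized nor pooled. Library totals, which the table of counts does not give, were taken from the study's mapping statistics, and read length order from its length statistics.

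Transcripts were matched by identifier to GENCODE 44 (GRCh38), which placed 12704 of 13051. Medians and shares by gene structure within a set cover its annotated transcripts only. These were 940 of the 969 tested, 113 of the 116 higher in all 3 replicates, 301 of the 311 higher in replicates 2 and 3 only and 15 of the 18 lower. Of the 73 called higher without replicate 1 they were 70. edgeR 4.0.16 (glmQLFit, glmQLFTest) in R 4.3.3 was fitted to the 6 libraries with the totals as library sizes, for transcripts with at least 30 reads over them, and p was adjusted after Benjamini-Hochberg (threshold 0.05). Summed classes included all transcripts. Pooled ratios have exact 95% binomial counting intervals, which cover counting error only. Both tools were tested on simulated data for JTE 1h against CTRL (969 transcripts, 200 given a log2 change of 2): edgeR recovered 143 and called 2 others, DESeq2 1.42.0 recovered 111 and called 1 other. The simulation gave all transcripts the same dispersion and equal numbers of changes up and down. It had no shared shift and no replicate unlike the others, so its recovery does not measure what these 6 libraries could detect.

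Per the labels replicates are biological. The series' text has treated cells collected in parallel with untreated ones in each numbered experiment, which pairs the numbers. Deviations from the group means correlated at 0.252 for pair 1, -0.0113 for pair 2 and 0.238 for pair 3. Between unequal numbers they ran from -0.319 (CTRL 3 with JTE 1h 1) to 0.234 (CTRL 3 with JTE 1h 2), so these values do not single out the pairs. The fit without a block was kept, since the study's methods state none for readthrough. Named were transcripts called; the 10 higher and 5 lower with the smallest p among groups that did not overlap; the 10 with the smallest p without JTE 1h replicate 1; the 2 most-read members of each class; the 5 most-read transcripts; and CPSF3. Values of some of these are not reported here. Class members given as higher or lower in all 3 replicates beyond these were named after their values were seen. The libraries compared, the gene classes and the rules were chosen with earlier results of these data known. Alternatives changed the scaling, filter, tool, pairing and libraries, and 2 were added after the data were seen (shares within read length classes, and without transcripts inside a neighbour). Other values came from Python 3.11.15 with scipy 1.17.1, and figures from matplotlib 3.10.9.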

Additional observations from a re-analysis of the deposited data

How the results depend on the processing

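The difference in readthrough share between JTE 1h and CTRL was negative among the libraries of shorter reads (-0.262 points, 1 against 2 libraries, no test). Under the other alternatives it stayed positive and past no threshold, from 0.659 without JTE 1h replicate 2 to 1.83 points without replicate 1, and against KCl from 1.63 to 2.80 points. It was 0.793 against all 6 untreated libraries (exact permutation test, p = 0.202), and 3 against 3 libraries cannot reach p under 0.05. The count of changed transcripts rested on few libraries: it was 75 without JTE 1h replicate 1 and 0 without any other library, where 40 to 102 transcripts had an unadjusted p under 0.05. It was 0 with TMM scaling, 0 with total readthrough reads as library size, 0 without a filter and 0 with the read length class as a block (82, 82, 399 and 62 at an unadjusted p under 0.05). It was 1, RPL38 each time, with mapped reads as totals, a minimum of 10 reads, the KCl libraries in the fit, and DESeq2 with either size factors. With the replicate block it was 4, and the block changed no other call and gave p = 0.5 for the share against CTRL (exact sign-flip test, smallest p 0.25). Transcripts higher in all JTE 1h libraries numbered 127 to 427 with 1 library left out, 398 of 3405 with a minimum of 10 reads and 74 with total readthrough reads as the scale. The median log2 fold change was 0.09 with TMM scaling, 0.08 with total readthrough reads, 0.22 with the read length block and 0.71 without JTE 1h replicate 1. Among 25 genes given with a value, no direction reversed over 350 pairs of a gene and an alternative. These pairs did not include CTRLim as the control, against which HECTD3 and POLR2J2 went the other way. In 22 pairs the threshold was passed where the reported fit did not, mostly without JTE 1h replicate 1, and in 8 it was lost. Most of these genes were chosen because their groups did not overlap or for a small p without replicate 1. Leaving out a library does not make such groups overlap, so the steady direction was largely set by the choice.

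With 258592 to 1147511 reads per library, most transcripts hold too few readthrough reads to be tested. For those tested, the spread between the JTE 1h libraries also enters the error, as the standard error of RPL38 was 0.53 with replicate 1 and 0.42 without it. The libraries of JTE 1h 1 and of JTE 1h 2 and 3 also differ in read length, and the cause of their difference was not tested.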

Other observations

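JTE 1h replicates 2 and 3, which were alike in share and in read length, still differed on some transcripts. Among those with at least 30 reads over both, the 20 with the largest difference were listed, after the values were seen. RPL36, a protein of the large ribosomal subunit, had 2 reads in replicate 2 and 33 in replicate 3 (7.39 times as many per library read), beside 3 in replicate 1 and 2, 1 and 0 in CTRL. AKNA, a centrosome protein first described as a transcription factor, had 6 and 65 reads (4.85 times), beside 0 in replicate 1 and 0, 1 and 2 in CTRL. DDIT4 held 4.53 times as many per library read in replicate 3 as in replicate 2. ZNF740 had 4 and 34 reads (3.81 times), beside 2 in replicate 1 and 0, 1 and 3 in CTRL, and DNAJB9, a chaperone of the endoplasmic reticulum, had 4 and 29 (3.25 times), beside 2 in replicate 1 and 0, 3 and 1 in CTRL.

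In KTI12, PNPLA3, CHFR and ADSL replicate 2 was the low library and replicates 1 and 3 the high ones. KTI12 had 37, 3 and 35 reads in JTE 1h 1, 2 and 3 beside 7, 8 and 5 in CTRL, PNPLA3 22, 3 and 30 beside 6, 6 and 2, CHFR 18, 4 and 37 beside 6, 8 and 5, and ADSL 18, 4 and 33 beside 13, 6 and 6. In each of these 4 the counted region begins inside a neighbour of the same strand, which is SAMM50 for PNPLA3, GOLGA3 for CHFR and SGSM3 for ADSL. Reads there can come from that neighbour, and its own level was not analysed here.

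Histone transcripts were among those lower in replicate 3 than in replicate 2. H2AC7 had 29 and 15 reads, 0.232 times as many per library read, H2AC4 20 and 12 (0.269 times), H2AC8 20 and 16 (0.358 times) and H1-2 88 and 66 (0.336 times). Among the controls each of these 4 was highest per library read in CTRL 2, with 25, 22, 21 and 39 reads there.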
